A study of Mus musculus with 6 samples.

Results

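Mitochondrial ribosomal proteins were taken as every gene whose symbol is Mrpl or Mrps followed by a number and at most 1 letter, without pseudogenes. This rule, which uses no measured value, gave 78 of the 54525 genes in the count files, 49 named for the large subunit (Mrpl) and 29 for the small subunit (Mrps). RNA was sequenced from C2C12, an established line of mouse myoblasts that fuse into multinucleated myotubes when serum is lowered. All 6 libraries came from wild-type (WT) cells with no treatment, 3 from proliferating myoblasts at day 0 (D0) and 3 after 5 days of differentiation (D5). C2C12 is a single immortalized line, and D5 cultures hold fused myotubes beside any cells that did not fuse. The comparison asks whether the genes of the mitochondrial ribosome moved with differentiation, and whether those of its 2 subunits moved alike.

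The mitochondrial ribosome stands in the mitochondrial matrix and translates the few mRNAs of mitochondrial DNA, all of which encode subunits of the respiratory chain and ATP synthase. Its rRNAs are made in the organelle, whereas every one of its proteins is encoded in the nucleus, translated in the cytosol and imported. The small subunit reads the mRNA and the large subunit joins amino acids and holds the exit tunnel. Relative to bacterial ribosomes it has lost rRNA and gained proteins, so members divide into homologues of bacterial ribosomal proteins and proteins found only in mitochondria. Skeletal muscle relies heavily on mitochondrial respiration.

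Bases upstream of the start of transcription are shown for the member with the largest rise and the largest fall in each subunit, among called members with a single RefSeq start whose 250 upstream bases hold no annotated exon and no neighbouring start. Members that changed more, such as *Mrps35*, which has no RefSeq entry in the promoter set used, are therefore not shown. They come from RefSeq, build GRCm38.p6, and are written 5′ to 3′ on the strand of the gene. Capitals mark matches to 4 short motifs that were searched on both strands: GCGCANGC for NRF1, CCGGAAG for ETS factors such as GABPA, AAGATGGC for YY1 and CACGTG, the E-box bound by MYC. NRF1, GABPA and YY1 are transcription factors known for binding promoters of nuclear genes of mitochondria. The stretch of *Mrpl52* lies at chr14:54426659-54426908 on the plus strand, that of *Mrpl34* at chr8:71464676-71464925 on the plus strand, that of *Mrps23* at chr11:88204138-88204387 on the plus strand and that of *Mrps2* at chr2:28467816-28468065 on the plus strand.
Mrpl52 (higher at D5): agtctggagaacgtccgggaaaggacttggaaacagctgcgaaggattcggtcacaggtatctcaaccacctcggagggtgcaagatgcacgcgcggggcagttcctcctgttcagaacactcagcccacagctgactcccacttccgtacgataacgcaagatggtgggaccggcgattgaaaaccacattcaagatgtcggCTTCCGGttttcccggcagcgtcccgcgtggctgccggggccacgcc
Mrpl34 (lower at D5): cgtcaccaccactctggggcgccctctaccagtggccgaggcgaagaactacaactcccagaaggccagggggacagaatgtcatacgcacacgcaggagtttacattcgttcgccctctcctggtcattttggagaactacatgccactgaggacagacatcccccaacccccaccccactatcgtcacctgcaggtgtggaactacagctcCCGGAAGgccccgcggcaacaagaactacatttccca
Mrps23 (higher at D5): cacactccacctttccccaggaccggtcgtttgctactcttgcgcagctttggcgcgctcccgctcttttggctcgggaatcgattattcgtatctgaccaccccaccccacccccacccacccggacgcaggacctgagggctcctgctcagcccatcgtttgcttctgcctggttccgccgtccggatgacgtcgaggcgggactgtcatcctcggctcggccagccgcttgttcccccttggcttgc
Mrps2 (lower at D5): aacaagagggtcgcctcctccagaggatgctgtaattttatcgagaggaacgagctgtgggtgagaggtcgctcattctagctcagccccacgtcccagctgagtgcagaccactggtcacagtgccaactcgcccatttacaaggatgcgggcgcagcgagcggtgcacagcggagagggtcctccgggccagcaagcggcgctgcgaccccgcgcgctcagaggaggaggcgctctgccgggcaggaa
*Mrpl52* and *Mrpl34* each held 1 ETS match, and no match lay in the bases printed for *Mrps23* and *Mrps2*. In the longer promoters counted next, which also take in the bases after the start, *Mrps23* held an ETS match too. RefSeq promoters, each 250 bases before and 50 after a start, were matched by symbol for 69 of the 78 members and 10611 of the 16290 genes tested. An ETS match occurred in 26 of the 69 members, 37.7%, beside 19.5% of all promoters matched. For YY1 the figures were 12 members, 17.4%, beside 5.16%, and for NRF1 22 members, 31.9%, beside 21.7%. The E-box was found in 5 members, 7.25%, beside 11.6% of all promoters.

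Libraries held 36555048 to 40895840 gene counts at D0 and 25449759 to 25811300 at D5. Myotube markers, 6 genes such as *Myh3*, embryonic myosin heavy chain, summed to 56.6 to 70.3 CPM at D0 and at least 11930 at D5. CPM are counts per 1000000 counts of the library in the genes tested, after the TMM scaling described below. All 8 proliferation genes fell, with a median log2 fold change of -4.81, and their part in the changes below was not tested. Of 4 endothelial, 4 immune and 4 adipocyte markers, *Kdr* and *Cd68* were the only ones over 3 counts in a D5 library, and each list summed to at most 3.31 CPM in any library. Most of the other markers were at or near 0. Adipocyte markers had at most 1 count in a library, the immune genes *Ptprc* and *Adgre1* at most 1 and *Cd3e* at most 2, and the endothelial genes *Cdh5* and *Tie1* at most 3. At D0 the endothelial genes *Pecam1* and *Kdr* were higher, with 4, 7 and 6 counts and 90, 118 and 92 counts. In bulk RNA, fewer cells of a type and less RNA per cell cannot be told apart.

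Most mitochondrial ribosomal protein genes changed a little, and more rose than fell. Of 77 members tested, 45 were higher at D5, 16 lower and 16 did not pass the test (edgeR quasi-likelihood test, Benjamini-Hochberg adjusted p under 0.05 over all 16290 genes tested). Calls were common in this comparison: 82.9% of all genes tested were called, 42.2% higher and 40.8% lower, whereas the members' shares were 58.4% higher and 20.8% lower. The median log2 fold change, D5 over D0, was 0.18 for the members and 0.00 for all genes. Sizes were small, with a median absolute log2 fold change of 0.25 beside 0.67 for all genes, and 59 of the 77 members lay within 0.5 of 0 on the log2 scale. Only *Mrps23* passed 1 in either direction. All values of CPM and fold change in this text use TMM scaling, which sets the bulk of genes near 0. The direction rests on that reference. With ERCC spike-in RNA as the reference the median of all genes was -0.58 and that of the members -0.39. With no scaling of the libraries they were -0.68 and -0.50. Raw counts also carry depth: the D5 libraries held fewer gene counts than the D0 libraries, which lowers every fold change. That fit is therefore no second reference for direction. The members' median stood above that of all genes by 0.18 with no scaling and 0.19 with ERCC scaling. Rises and falls are thus relative to the median gene.

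**Figure D1:**
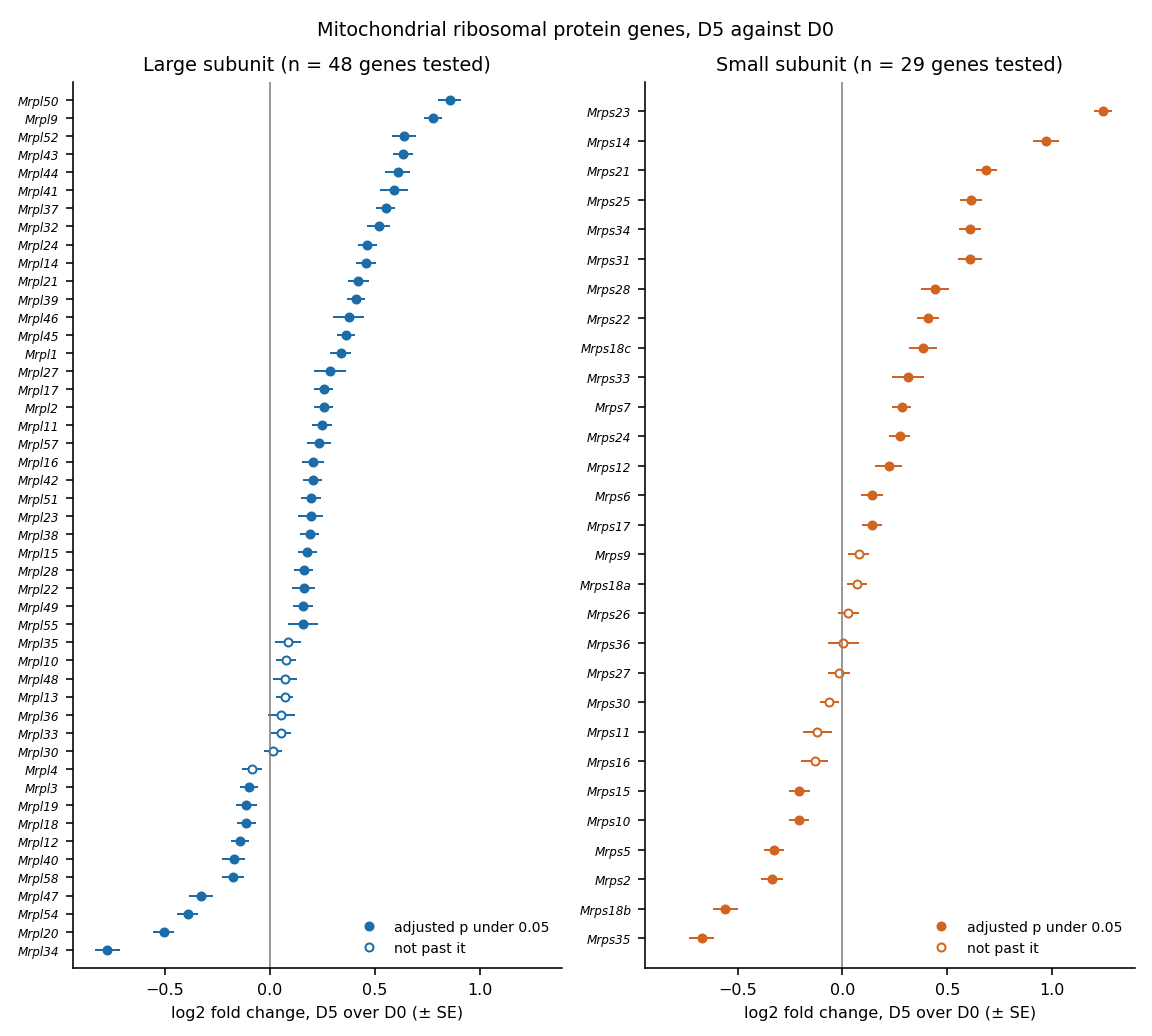
Log2 fold change, D5 over D0, of the 77 members tested, as points with bars of 1 standard error (SE), large subunit at left and small subunit at right. Filled points passed an adjusted p of 0.05 in edgeR; the values run from -0.77 for Mrpl34 to 1.24 for Mrps23 and most lie within 0.5 of 0.

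Within the libraries the members' CPM summed to 2332, 2272 and 2217 at D0 and 2584, 2624 and 2562 at D5. The 3 sums at D5 all lay above those at D0, by 1.14-fold between means. As a share of all gene counts of the library, without TMM factors, the members took 0.234% ± 0.0048 at D0 and 0.251% ± 0.00285 at D5 (SD, n = 3). Counted one gene at a time, 45 members had every D5 library above every D0 library, 18 had every one below and 14 overlapped, where over all genes tested 42.2% lay above and 41.1% below.

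Among large-subunit genes the largest rise was that of *Mrpl50*, a protein found only in mitochondrial ribosomes (ENSMUSG00000044018.3, GRCm38 chr4:49512596-49521093, minus strand). Its CPM was 27.9, 26.9 and 25.8 in the D0 libraries and 52.6, 49.8 and 43.6 in the D5 libraries. The groups did not overlap, and *Mrpl50* rose 1.81-fold (log2 fold change 0.86, SE 0.05, edgeR adjusted p = 5.2e-15). *Mrpl9*, a homologue of bacterial L9 (chr3:94443318-94451130, plus strand), had a CPM of 35.3, 34.9 and 35.3 at D0 and 61.5, 61.7 and 58.0 at D5. The groups were far apart, and *Mrpl9* rose 1.72-fold (log2 fold change 0.78, SE 0.04, edgeR adjusted p = 1.1e-16). *Mrpl52*, *Mrpl43* and *Mrpl44* followed, with folds of 1.56, 1.55 and 1.53 and no overlap between groups. *Mrpl44*, whose protein has an RNase III-like fold and is mutated in a human mitochondrial cardiomyopathy, went from 16.3 ± 1.06 to 24.8 ± 0.639 CPM (SD, n = 3). Of the exonic bases of *Mrpl43*, 33.4% lie opposite exons of *Twnk*, the mitochondrial DNA helicase, so its reads are uncertain without a stated strand setting.

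Falls in the large subunit were led by *Mrpl34*, a homologue of bacterial L34 (ENSMUSG00000034880.7, chr8:71464959-71465747, plus strand). Its CPM was 23.3, 21.9 and 23.5 at D0 and 13.6, 13.7 and 13.0 at D5. Each D5 library lay well below each D0 library, and the level fell to 58.5% of D0 (log2 fold change -0.77, SE 0.06, edgeR adjusted p = 5.4e-13). *Mrpl20*, needed in bacteria for early assembly of the large subunit, stood at 39.0, 37.0 and 36.3 CPM at D0 and 25.5, 26.7 and 26.9 at D5. It fell to 70.4% of D0 (log2 fold change -0.51, SE 0.05, edgeR adjusted p = 9.3e-11). *Mrpl54*, *Mrpl47* and *Mrpl58* fell to 76.2%, 79.6% and 88.6% of D0. *Mrpl58* is known as a peptidyl-tRNA hydrolase that frees stalled ribosomes, besides being a structural protein of the large subunit. Of the exonic bases of *Mrpl47*, 24.2% lie opposite *Ndufb5*, a complex I subunit that rose (log2 fold change 0.88).

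In the small subunit *Mrps23*, a mitochondria-specific protein (ENSMUSG00000023723.17, chr11:88204388-88211507, plus strand), changed most. Its CPM was 30.9, 29.7 and 30.5 at D0 and 73.4, 73.4 and 68.9 at D5. The lowest D5 library was above the highest D0 library by more than the D0 level itself, and the rise was 2.37-fold (log2 fold change 1.24, SE 0.04, edgeR adjusted p = 7.4e-22). *Mrps14*, a homologue of bacterial S14 in the head of the subunit (chr1:160195215-160202170, plus strand), had 12.2, 12.4 and 10.7 CPM at D0 and 23.6, 22.8 and 22.8 at D5. It rose 1.96-fold (log2 fold change 0.97, SE 0.06, edgeR adjusted p = 9.3e-15). *Mrps21*, the homologue of bacterial S21, had 31.5, 27.6 and 28.2 CPM at D0 and 45.9, 46.5 and 47.8 at D5. The groups were again apart, by 1.61-fold (log2 fold change 0.69, SE 0.05, edgeR adjusted p = 9.7e-14). *Mrps25* and *Mrps31* rose 1.53-fold and 1.52-fold. Most of the exonic length of *Mrps25*, 69.8%, lies opposite *Nr2c2*, a nuclear receptor gene that fell (log2 fold change -0.44).

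*Mrps35*, a mitochondria-specific protein (chr6:147042764-147073991, plus strand), fell most in the small subunit. Its CPM was 23.2, 23.7 and 22.8 at D0 and 15.2, 13.6 and 15.0 at D5, with no overlap. The D5 level was 62.8% of D0 (log2 fold change -0.67, SE 0.06, edgeR adjusted p = 1.1e-11). *Mrps2*, *Mrps5* and *Mrps10*, all homologues of bacterial proteins, fell to 79.2%, 79.8% and 86.7% of D0. *Mrps5* shapes the channel through which mRNA enters, and its CPM was 39.8, 39.0 and 41.4 at D0 and 31.4, 31.3 and 33.2 at D5. In each of these 3 genes all D5 libraries lay below all D0 libraries.

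**Figure D2:**
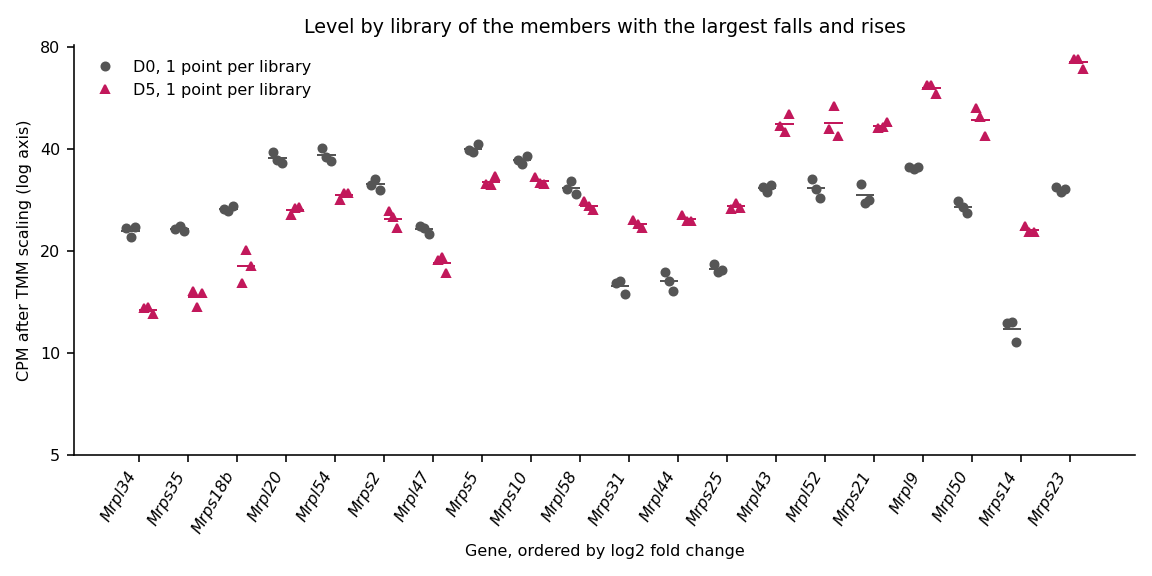
CPM after TMM scaling (log axis) in each of the 6 libraries for the 5 largest falls and 5 largest rises of each subunit, ordered by log2 fold change; grey circles are D0 libraries, red triangles D5 libraries and short lines group means. The groups are apart for all 20 genes drawn, which were chosen by the size of their change in the same data. Over all genes tested every D5 library lay above every D0 library for 42.2% and below for 41.1%.

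The mammalian genome holds 3 relatives of bacterial S18, and they did not share a direction. *Mrps18c*, the one that takes the bacterial position, had 14.4, 13.7 and 13.5 CPM at D0 and 18.8, 19.4 and 16.0 at D5 and rose 1.31-fold (log2 fold change 0.38, SE 0.07, edgeR adjusted p = 6.9e-06). *Mrps18b*, which sits elsewhere in the small subunit, had 26.5, 26.2 and 27.1 CPM at D0 and 16.1, 20.1 and 18.1 at D5 and fell to 67.9% of D0 (log2 fold change -0.56, SE 0.06, edgeR adjusted p = 1.3e-09). With ERCC scaling *Mrps18c* too was below 0, as it was with no scaling, where the lower depth at D5 lowers every fold change. *Mrps18a*, whose protein lies in the large subunit despite its name, had a log2 fold change of 0.07 (SE 0.05) and did not pass the test. The difference between the 3 genes was not tested, and 30.5% of *Mrps18b* exonic bases lie opposite *Gm16279* while 23.2% of those of *Mrps18c* are shared on the same strand with *Gm43511*. *Mrps30*, also a protein of the large subunit by structure, had 32.6 ± 0.405 CPM at D0 and 31.2 ± 0.779 at D5 (SD, n = 3) and did not pass the test. *Mrps36*, known as a component of the 2-oxoglutarate dehydrogenase complex rather than the ribosome, had 14.3 ± 0.973 and 14.4 ± 1.50 CPM, which overlapped. With an offset for GC content and exonic length, *Mrps18a* was called lower (log2 fold change -0.19) and *Mrps30* higher (0.16).

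Over all genes tested 42.2% were called higher and 40.8% lower. By subunit, 30 of 48 large-subunit genes tested (62.5%) rose and 10 (20.8%) fell, and 15 of 29 small-subunit genes (51.7%) rose and 6 (20.7%) fell. Their median log2 fold changes were 0.19 and 0.14, a difference of 0.05 that is far smaller than the spread among genes, whose quartiles ran from 0.04 to 0.38 in the large subunit and from -0.12 to 0.41 in the small subunit. Placed by structure, with *Mrps18a* and *Mrps30* in the large subunit and *Mrps36* left out, both medians were 0.18. The summed CPM of large-subunit genes was 2.14 times that of small-subunit genes at D0 and 2.15 times at D5. Homologues of bacterial proteins had a median of 0.15, with 25 of 46 higher and 11 lower, and mitochondria-specific members had a median of 0.27, with 20 of 30 higher and 5 lower. No test was made over these groups of genes.

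TPM (transcripts per 1000000), which divides counts by the length of all annotated exons of a gene, gave another picture of the balance between subunits. Levels of different genes can be compared on it only as far as that length fits the transcripts made. On this scale the large-to-small ratio of summed levels was 2.30, 2.32 and 2.31 in the D0 libraries and 2.09, 2.10 and 2.09 in the D5 libraries. All D5 libraries lay below all D0 libraries, through a higher small-subunit sum (1099 to 1220 TPM in the mean) over a large-subunit sum that overlapped between the groups. The shift rested on 2 genes of high TPM. *Mrps21* went from 136 ± 7.78 to 196 ± 3.85 TPM and *Mrps23* from 67.3 ± 1.19 to 143 ± 6.50 TPM (SD, n = 3). Leaving both out, a choice made after their values were seen, the ratio was 2.83 ± 0.00907 at D0 and 2.90 ± 0.00872 at D5, and the order of the groups turned round.

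**Figure D3:**
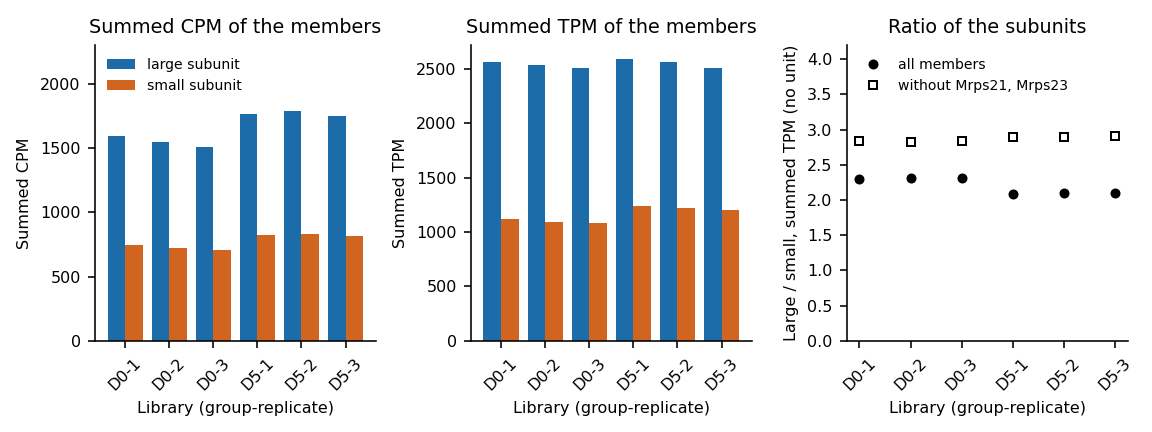
Summed CPM (left) and summed TPM (middle) of large-subunit and small-subunit members in each library, and the ratio of the TPM sums with all members (circles) and without Mrps21 and Mrps23 (squares). The circles sit near 2.31 at D0 and 2.09 at D5, and the squares near 2.83 and 2.90.

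Although the proteins enter 1 particle in equal numbers apart from the L12 stalk, the TPM of their genes differed widely. TPM means at D0 ran from 8.65 for *Mrpl48* to 160 for *Mrpl54*, an 18.6-fold range with a median of 38.9, and at D5 from 5.25 for *Mrps35* to 196 for *Mrps21*, a 37.4-fold range with a median of 38.7. The lowest genes have long annotated exons, 8152 bases for *Mrpl48* and 8631 for *Mrps35*, and the highest short ones, 825 for *Mrpl54* and 739 for *Mrps21*. In CPM, which does not divide by length, *Mrpl48* had 20.4 and *Mrpl54* 38.3 at D0. How much of the range comes from annotated length was not tested. Over all 6 libraries the highest levels in the large subunit were those of *Mrpl54*, *Mrpl14* and *Mrpl12*, and in the small subunit those of *Mrps21*, *Mrps23* and *Mrps15*. *Mrpl54* headed the order at D0 but had 109 ± 0.870 TPM at D5, where *Mrps21*, *Mrpl14* (148 ± 7.53), *Mrps23* and *Mrpl52* (133 ± 12.9) came first. *Mrpl12*, whose protein forms the stalk that recruits translation factors, went from 137 ± 2.57 to 112 ± 3.47 TPM (SD, n = 3). Beyond these exchanges the order on this scale was largely kept: across the 77 genes, log2 TPM at D5 and D0 had a Pearson r of 0.94 and a Spearman rho of 0.94, over genes that share libraries and are not independent replicates. A gene's TPM at D0 and at D5 divide by the same length, which alone can raise both correlations. Whether the order in CPM was kept was not tested.

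*Mrpl53* had 0 counts in all 6 libraries and could not be tested. Of its exonic length, 88.0% is shared on the same strand with *Gm42688*, which had 26, 38 and 25 counts at D0 and 36, 25 and 19 at D5. How reads in the shared bases were assigned was not tested, so the 0 may not be a level of *Mrpl53* RNA. In all, 12 members had over 20% of their exonic length shared with another gene or over 20% of their 50-base stretches found in one: *Mrpl19*, *Mrpl22*, *Mrpl24*, *Mrpl27*, *Mrpl43*, *Mrpl47*, *Mrpl53*, *Mrps18b*, *Mrps18c*, *Mrps25*, *Mrps27* and *Mrps34*. Without them, an alternative chosen after seeing the data, 38 of 66 members were higher and 13 lower, with a median log2 fold change of 0.17.

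A feature that the rule did not use was the position of the genes beside neighbours that start nearby on the opposite strand. Of the 77 members tested, 33 had the start of another protein-coding gene on the opposite strand within 1000 bases, here called head to head. That is 42.9% beside 16.4% of the 12806 protein-coding genes tested. The distance was taken in either direction, so pairs whose 5′ ends overlap were counted together with divergent pairs, *Mrpl46* and *Mrps11* among them. Nuclear respiratory chain genes had a share of 38.8% and cytosolic ribosomal protein genes 19.7%. In the large subunit 24 of 48 members had such a neighbour and in the small subunit 9 of 29. The 33 members formed 32 pairs, since *Mrpl46* and *Mrps11* are partners of each other, and starts lay as little as 26 bases apart, between *Mrpl54* and *Apba3*. Members also had shorter exonic length, with a median of 2533 bases beside 4504, and a GC content of 49.7% beside 49.8%.

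Calls of head-to-head partners went both ways. Both genes were tested in 30 pairs and both called in 21, of which 10 went the same way (7 higher, 3 lower) and 11 opposite ways. Over all genes tested 82.9% were called, 42.2% higher and 40.8% lower. How often unrelated genes would share a direction was not tested, so these counts do not set the pairs apart. In 9 of the 11 opposite pairs the member rose while its partner fell, a split that rests on the scaling. With ERCC scaling 8 of the 9 members were below 0. With no scaling all 9 were, but the lower depth at D5 lowers every fold change there. *Mrpl57* rose (log2 fold change 0.24, edgeR adjusted p = 3.9e-04) from a start 49 bases from that of *Ska3*, a kinetochore gene, which fell from 23.3 ± 1.11 to 0.736 ± 0.219 CPM (SD, n = 3). *Mrpl51* rose (0.20, edgeR adjusted p = 4.2e-04) at 100 bases from *Ncapd2*, a condensin subunit, which fell from 145 ± 1.39 to 10.3 ± 0.498 CPM. *Mrpl27* rose (0.29, edgeR adjusted p = 0.0014), with 24.4% of its 50-base stretches found in *Gm6304* too, at 197 bases from *Eme1*, a DNA repair endonuclease subunit that fell by 4.64 on the log2 scale. The groups overlapped for *Mrpl27*, at 16.7, 15.2 and 12.9 CPM at D0 and 16.4, 19.9 and 18.2 at D5. Of its exonic bases, 7.61% lie opposite *Eme1* itself. The other partners that fell beside a rising member were *Tmem63b*, *Ighmbp2*, *Wdfy1*, *Sars2*, *Helq* and *Gga3*. Among pairs that rose together were *Mrpl50* with *Zfp189* and *Mrpl41* with *Pnpla7*.

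*Mrps12*, a homologue of bacterial S12 at the decoding centre, faces *Sars2*, the mitochondrial seryl-tRNA synthetase, so both partners serve mitochondrial translation. *Mrps12* had 13.4, 13.5 and 12.5 CPM at D0 and 15.4, 14.9 and 15.6 at D5 and rose 1.16-fold (log2 fold change 0.22, SE 0.06, edgeR adjusted p = 0.0028). *Sars2* fell from 10.3 ± 0.477 to 4.11 ± 0.442 CPM (SD, n = 3; log2 fold change -1.31, edgeR adjusted p = 2.0e-13). Neither gene overlapped between the groups, but the call of *Mrps12* was lost with total-count scaling and with the offset for GC content and exonic length. With ERCC scaling its log2 fold change was -0.36, the direction of *Sars2*. With no scaling, which leaves in the lower depth at D5, the value for *Mrps12* was -0.46. The bases between their RefSeq starts, 146 in all, lie at chr7:28741822-28741967 (GRCm38.p6) and are shown on the minus strand, the strand of *Mrps12*. Of the 11 pairs called in opposite directions relative to the median gene, this pair alone met the limits for printing. These were a single RefSeq start for each gene, a limited distance between the starts and no annotated exon between them. None of the 4 motifs was found in these letters, whereas the longer RefSeq promoter of *Mrps12* held an ETS and a YY1 match outside them.
Mrps12 to Sars2: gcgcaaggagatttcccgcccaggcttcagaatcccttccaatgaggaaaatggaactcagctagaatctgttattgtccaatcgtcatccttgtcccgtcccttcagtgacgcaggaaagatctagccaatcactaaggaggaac

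**Figure D4:**
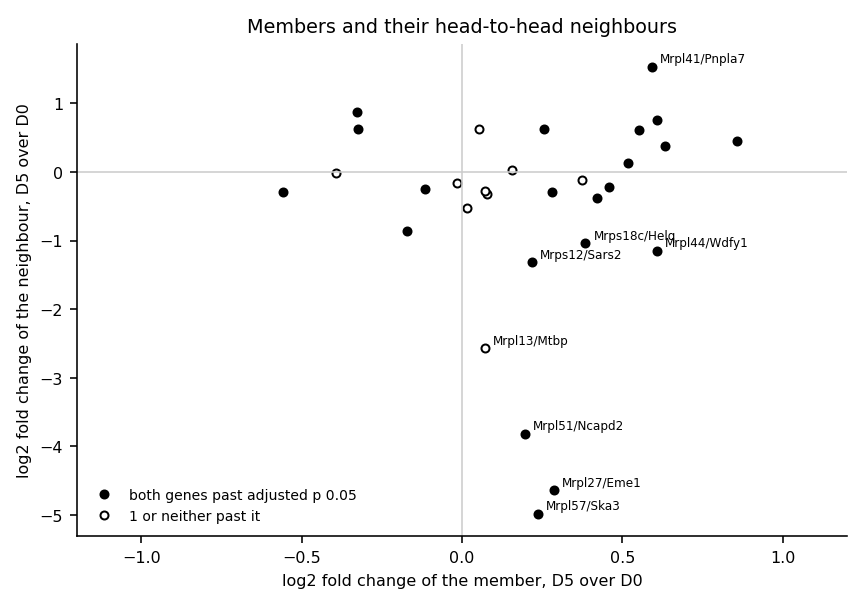
Log2 fold change (D5 over D0) of 30 members, horizontal, and of their head-to-head neighbours, vertical; filled points are the 21 pairs with both genes past an adjusted p of 0.05. Members stay between -0.56 (Mrps18b) and 0.86 (Mrpl50), while neighbours run from 1.54 (Pnpla7) down to -4.98 (Ska3); the Mrpl46 and Mrps11 pair is drawn once.

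Other parts of the mitochondrial translation system were read from lists of known genes. For the lists here and below, the shares over all genes tested were 42.2% higher and 40.8% lower. All 5 mitoribosomal proteins that carry other symbols rose, with a median log2 fold change of 0.20, led by *Aurkaip1* (0.63) and *Gadd45gip1* (0.61). Of 24 assembly factors 10 rose, 41.7% and so near the share of all genes, and 5 fell, 20.8% (median 0.08). *Ngrn*, which binds the large-subunit rRNA, rose most (1.26), followed by *Nsun4*, an rRNA methyltransferase (0.89), and *Mettl17* (-0.63) and *Gtpbp10* (-0.33) fell most. Of 14 translation factors 9 rose and 3 fell (median 0.18). *Taco1*, an activator of cytochrome oxidase subunit translation, rose 1.07 on the log2 scale and *Guf1*, an elongation factor, and *Mtrf1l*, a release factor, fell by 0.58 and 0.53, while *Mtrf1*, a relative of *Mtrf1l*, rose by 2.76 from 1 to 6 counts in the D0 libraries. Of 20 genes for charging mitochondrial tRNAs 7 rose, with *Nars2* (0.92) and *Lars2* (0.72) in front, and 7 fell, with *Sars2* (-1.31) and *Wars2* (-0.62) in front. That is 35% each way, not above the shares of all genes.

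Of 7 genes of mitochondrial transcription 6 rose and none fell (median 0.48), with *Tfb2m*, the transcription initiation factor, at 1.13 and *Mterf1b* at 0.97. The rRNAs *mt-Rnr1* and *mt-Rnr2* had at most 1 count in a library, so the RNA part of the ribosome could not be compared. Among the 13 mRNAs that this ribosome translates, 7 rose and 4 fell. *mt-Nd5* (1.26) and *mt-Nd4* (1.11) rose most. *mt-Atp8* (-1.79) and *mt-Co2* (-0.76) fell most. The split followed the level: those that rose had 314 (*mt-Nd6*) to 5265 (*mt-Co1*) CPM at D0. Those that fell had only 0.755 (*mt-Atp8*) to 17.4 (*mt-Co2*) CPM, and *mt-Nd3* and *mt-Nd4l*, not called, had 0.657 and 1.11. Why these counts were so low was not tested, so the falls may not be levels of these mRNAs.

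Set beside nuclear genes of the respiratory chain and ATP synthase, the members had the smaller median change. Of 80 nuclear respiratory chain genes tested, 77 rose and 2 fell, with a median log2 fold change of 0.80. The largest rises there were *Cox8b* (9.86) and *Cox6a2* (6.72), subunits of the muscle forms of cytochrome oxidase, and the falls were *Cox6a1* (-0.63) and *Cox8a* (-0.31), their counterparts in other tissues. With no scaling, where the lower depth at D5 lowers every fold change, 38 of these genes were higher and 20 lower. Of 76 cytosolic ribosomal protein genes 9 rose and 53 fell (median -0.29), with *Rpl13a* (-1.34) and *Rps12* (-0.99) lowest and *Rpl14* (0.20) and *Rpl9* (0.17) highest. The members' median of 0.18 thus lay between those of the cytosolic ribosome and the respiratory chain. No test compared the lists, and counts of cytosolic ribosomal protein genes are uncertain because many processed pseudogenes share their sequence.

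**Figure D5:**
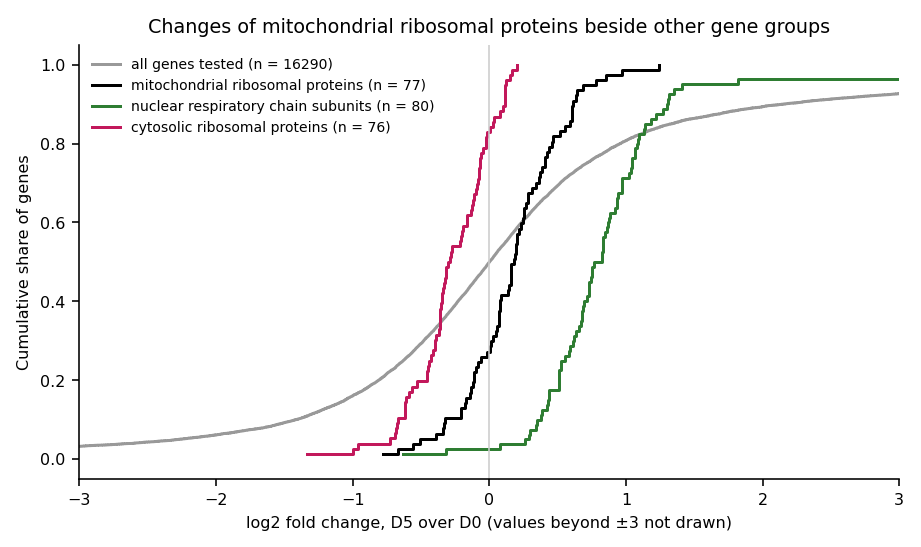
Cumulative share of genes (vertical) by log2 fold change, D5 over D0 (horizontal), for all 16290 genes tested, the 77 members, 80 nuclear respiratory chain genes and 76 cytosolic ribosomal protein genes. The members' curve is steeper than that of all genes and crosses its middle at 0.18, between the cytosolic ribosome at -0.29 and the respiratory chain at 0.80.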

How the data were processed

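Total RNA of 3 cultures per day was sequenced. The authors aligned reads to GRCm38 (mm10) and deposited whole-number counts per gene with ERCC spike-in rows; per the labels the counter was featureCounts. The strand setting and annotation release were not given in the sources used here. The labels do not say whether the cultures were grown apart, so p-values measure the spread between these samples. From the deposited counts, gene rows were filtered with filterByExpr, TMM scaled and tested with edgeR 4.0.16 in R 4.3.3 (quasi-likelihood, group as the only term). ERCC rows stayed out. TPM used exonic lengths of GENCODE M21, which also gave overlaps and neighbours. DESeq2 1.42.0 and the other alternatives are given in the closing section. Members and lists were chosen with earlier results of these data known. Named members are the 5 largest rises and falls among called genes and the 3 highest TPM in each subunit, untested members, S18 relatives, *Mrps30* and *Mrps36*, and of each other list the 2 largest rises and falls. *Mrps12* and the other members in head-to-head pairs, *Mrpl48* and the genes printed with their sequence were chosen after their values were seen. Replicate numbers were not taken to pair the samples, since not every correlation of deviations between same-numbered libraries passed 0.1 (0.0275, 0.104 and 0.0469).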

Additional observations from a re-analysis of the deposited data

Results flagged for a closer look

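Pseudogenes of members were not part of the comparison but carried counts. *Mrpl48-ps* had up to 158 counts in a library, with 3.77 ± 0.150 CPM at D0 and 3.20 ± 0.379 at D5 (SD, n = 3), and did not pass the test (log2 fold change -0.23, edgeR adjusted p = 0.099). *Mrpl23-ps1* had at most 13 counts and *Mrps36-ps1* at most 6. These values exceed the 3 counts that a count of 0 allows and were flagged because no comparison used them.

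ERCC spike-in RNA took between 0.720% and 2.09% of the counts, with both ends among the D5 libraries. It was flagged as a signal outside the comparison, and the fit with these RNAs as reference is given with the other alternatives.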

How the results depend on the processing

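The counts of members higher and lower stayed within 1.5 times of 45 and 16 with DESeq2, upper-quartile scaling, total counts, either filter setting, the GC and length offset and each library left out, but not with no scaling or ERCC scaling. With no scaling 3 members were higher and 64 lower (large subunit 1 and 41, small subunit 2 and 23) with a median log2 fold change of -0.503. That fit leaves in the lower depth of the D5 libraries, which lowers every fold change. With ERCC scaling none (0) was higher and 2 lower (large 0 and 1, small 0 and 1), the median was -0.392 and 5560 genes were called in all, where the spike-in share ran from 0.720% to 2.09% among the D5 libraries. The median was 0.094 with total counts, 0.125 with no filter on low counts and 0.142 to 0.181 with 1 library left out. The members' median stood above that of all genes by 0.135 to 0.187 in every fit. With the offset for GC content and exonic length 10 small-subunit members were lower, with or without the replicate block; 36 of the 45 higher and 14 of the 16 lower calls were kept, 10 calls were lost, 11 gained (13 with the block) and *Mrpl38* turned from higher to lower. Total counts lost 8 calls, no filter 6 and DESeq2 4. In the fit with the replicate block 45 members were higher and 17 lower; each D5 library correlated best with the D0 library of its own number, a hint from the data only. Over all 77 members 51 log2 fold changes changed sign with no scaling, 44 with ERCC scaling, 10 with total counts and 7 with the offset. Among the 27 members named by rule these were, with no scaling, *Mrpl14* (-0.222), *Mrpl43* (-0.048), *Mrpl44* (-0.072), *Mrpl52* (-0.042), *Mrps18a* (-0.611), *Mrps18c* (-0.297), *Mrps25* (-0.070), *Mrps31* (-0.075) and *Mrps36* (-0.676). Among the same 27 they were, with ERCC scaling, *Mrpl14* (-0.126), *Mrps18a* (-0.507), *Mrps18c* (-0.139) and *Mrps36* (-0.514), with total counts *Mrps18a* (-0.015) and *Mrps36* (-0.080), and with the offset *Mrps18a* (-0.194 in both fits) and *Mrps30* (0.155, and 0.156 with the replicate block). *Mrps36* was also at -0.011 with upper-quartile scaling, -0.049 with no filter and -0.076 to 0.069 with 1 library left out. The causes were not tested. With 1 library left out, 42 to 44 of the 45 higher and 14 to 16 of the 16 lower members kept their call, and those lost were among *Mrpl3*, *Mrpl18*, *Mrpl19*, *Mrpl22*, *Mrpl55*, *Mrps6* and *Mrps17*, each with a change under 0.2 on the log2 scale.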
